A study of Mus musculus with 36 samples.

Results

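The 42 genes described here are genes of the striated muscle sarcomere, its calcium handling, its energy supply and its regulators, and they were read as 1 group in 36 mouse RNA-seq libraries. Members were taken by name from a list of skeletal muscle genes. No measured value entered the rule, but the members were chosen with earlier results of these data known. The members are 42 of 54115 genes. The libraries came from 12 whole melanomas, from cancer-associated fibroblasts (CAFs) and CD8+ T cells sorted from tumours, and from immortalized dermal fibroblasts (iDFs).

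All tumours arose in an inducible melanoma strain with Braf CA/CA and Tyr-CreERT2 of mixed, mostly 129S, background, in which 4-hydroxytamoxifen painted on the back skin activates a melanocyte-driven Cre recombinase, and every tumour-bearing mouse carried these alleles. The controls were wild type (WT) for macroH2A, and the knockout mice (dKO) lacked both macroH2A histone genes, H2afy and H2afy2, in every cell of the body. The deletion was therefore not limited to the tumour or to muscle. Tumours were taken 50 days after induction. Mice whose CD8+ T cells were sorted were 9 weeks old at induction and those whose CAFs were sorted 10 weeks old, while for the whole-tumour libraries no age is stated in the sources used here. There were 6 WT tumours (4 female, 2 male) and 6 dKO tumours (1 female, 5 male), spread over 3 library preparation batches. In batches 1 and 2 both genotypes held males, but batch 3 held 2 WT females and 2 dKO males, so that sex and genotype cannot be told apart in that batch. The sorted CAFs (by CD140a) and CD8+ T cells were 4 WT and 4 dKO samples each, with 2 females and 2 males in each group. The iDFs came from WT and dKO skin without tumours, were kept in 0.5% serum for 24 h and then received serum for 0 or 30 min, with 2 samples per genotype and time, all male. Nothing states that the 2 iDF samples of a group were separate lines, so their spread may be technical.

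Skeletal muscle contracts when calcium, released from the sarcoplasmic reticulum by the ryanodine receptor, binds troponin C and frees actin for myosin. Adult fibres are of fast or slow kinds, and each kind uses its own paralogue of most of these proteins, so a ratio of paralogues describes which kind of fibre an RNA sample holds. In mouse back skin a thin sheet of striated muscle, the panniculus carnosus, lies under the dermis and the fat. In whole-tumour RNA, fewer muscle cells and less RNA per muscle cell cannot be told apart.

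Sequence upstream of the start is shown for the member of each role with the highest mean TPM over all transcripts, to show 1 gene of each role, and for the pair Myh4 and Tnnc1 as a fast myosin and a slow troponin. Windows are the 250 bases before the RefSeq start (GRCm38.p6), written 5′ to 3′ on the strand of the gene. Capitals mark each E-box (CANNTG, a palindromic pattern that covers both strands), the pattern that the factors MyoD and myogenin bind. The members are the regulatory light chain Mylpf (chr7:127211358-127211607, plus strand), the fast troponin C Tnnc2 (chr2:164779735-164779984, minus strand), desmin Des (chr1:75360042-75360291, plus strand), the fast calcium pump Atp2a1 (chr7:126463074-126463323, minus strand), muscle creatine kinase Ckm (chr7:19410844-19411093, plus strand) and myogenin Myog (chr1:134289754-134290003, plus strand). The pair is Myh4 (chr11:67237562-67237811, plus strand) and Tnnc1 (chr14:31208062-31208311, plus strand).
Mylpf: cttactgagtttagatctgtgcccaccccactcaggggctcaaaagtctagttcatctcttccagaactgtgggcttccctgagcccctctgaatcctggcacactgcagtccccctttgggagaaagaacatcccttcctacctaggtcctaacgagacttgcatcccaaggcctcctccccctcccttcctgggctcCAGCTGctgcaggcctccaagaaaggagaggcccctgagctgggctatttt
Tnnc2: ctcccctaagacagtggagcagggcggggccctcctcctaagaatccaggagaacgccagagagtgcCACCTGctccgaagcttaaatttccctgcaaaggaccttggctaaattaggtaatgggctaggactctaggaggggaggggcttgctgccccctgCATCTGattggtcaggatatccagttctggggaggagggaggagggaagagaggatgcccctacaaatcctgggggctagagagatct
Des: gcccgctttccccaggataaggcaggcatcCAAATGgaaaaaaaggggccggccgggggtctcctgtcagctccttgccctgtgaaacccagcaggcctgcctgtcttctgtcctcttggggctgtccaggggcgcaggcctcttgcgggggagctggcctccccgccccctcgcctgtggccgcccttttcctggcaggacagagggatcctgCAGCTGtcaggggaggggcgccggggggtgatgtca
Atp2a1: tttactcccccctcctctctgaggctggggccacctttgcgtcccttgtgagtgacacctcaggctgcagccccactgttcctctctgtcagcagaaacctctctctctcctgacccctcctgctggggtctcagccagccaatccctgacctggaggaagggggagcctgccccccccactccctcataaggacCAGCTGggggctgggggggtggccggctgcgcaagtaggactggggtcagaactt
Ckm: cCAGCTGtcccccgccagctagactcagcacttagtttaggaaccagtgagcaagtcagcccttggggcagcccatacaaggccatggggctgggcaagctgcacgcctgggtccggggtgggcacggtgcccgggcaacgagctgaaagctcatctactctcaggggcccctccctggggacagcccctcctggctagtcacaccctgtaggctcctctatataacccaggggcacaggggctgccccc
Myog: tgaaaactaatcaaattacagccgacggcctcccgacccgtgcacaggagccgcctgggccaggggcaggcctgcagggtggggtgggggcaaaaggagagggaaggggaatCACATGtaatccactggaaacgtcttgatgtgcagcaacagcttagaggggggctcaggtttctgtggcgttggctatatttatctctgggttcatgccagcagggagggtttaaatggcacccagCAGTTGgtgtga
Myh4: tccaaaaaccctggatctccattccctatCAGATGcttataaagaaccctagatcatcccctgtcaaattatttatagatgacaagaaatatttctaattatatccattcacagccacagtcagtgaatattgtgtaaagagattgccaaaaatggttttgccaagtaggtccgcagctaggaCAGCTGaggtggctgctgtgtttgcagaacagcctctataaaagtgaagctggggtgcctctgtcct
Tnnc1: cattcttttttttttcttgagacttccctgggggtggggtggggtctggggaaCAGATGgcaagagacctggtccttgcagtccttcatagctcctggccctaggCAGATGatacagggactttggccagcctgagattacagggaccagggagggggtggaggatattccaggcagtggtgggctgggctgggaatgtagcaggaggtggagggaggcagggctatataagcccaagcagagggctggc

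Of the 42 members, 33 had a promoter entry in that table. At least 1 CANNTG stood in 28 of the 33 windows (84.8%), against 66% of 27025 windows of the same length over all genes. The narrower pattern CAGCTG, which lies within CANNTG, stood in 13 of 33 (39.4%) against 12.8% of all windows. It is in the windows of Mylpf, Atp2a1, Des, Ckm and Myh4 printed above, at 51, 55, 36, 249 and 67 bases before the start, and it is not in those of Tnnc2, Myog and Tnnc1. CATTCC, read on both strands, stood in 9 of 33 (27.3%) against 12.6%. The MEF2 box and the CArG box (both strands), named for the factors that bind them, stood in 8 (24.2%) and 3 (9.09%) of the members' windows, against 3.01% and 1.4% of all. TATAAA on the strand of the gene stood in 3 (9.09%) against 8.12%. The Myh4 window held all 6 patterns, with a MEF2 box 182 and a CArG box 104 bases before the start. Of the 10 fast and 8 slow fibre members with an entry, CAGCTG was in 5 and 2. These matches describe letters only.

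Whole tumours had 22245177 to 85432438 reads in genes, the CAFs 20164075 to 29135123, the CD8+ T cells 17526681 to 28690034 and the iDFs 22560402 to 30960463. Levels are given as CPM, a gene's share of the reads in its library scaled by normalization factors, where 1 gene is compared between libraries, and as TPM (a share of transcripts that corrects for length) where genes are compared with each other. The gene sums of H2afy did not overlap between genotypes in whole tumours (90.5 to 122 CPM in WT, 61.2 to 82.4 CPM in dKO) or iDFs (91.2 to 94.3 and 61.0 to 65.2 CPM), but overlapped in CAFs and in CD8+ T cells. Those of H2afy2 did not overlap in CAFs (17.1 to 24.9 CPM in WT, 10.7 to 14.5 CPM in dKO) or iDFs (45.6 to 51.2 and 30.5 to 31.3 CPM), overlapped in whole tumours (7.97 to 13.2 and 4.69 to 8.41 CPM) and were at most 0.41 CPM in CD8+ T cells. A gene sum can include reads outside a deleted part, and so does not test the deletion. In all 36 libraries the labelled sex matched the higher of Xist and Ddx3y.

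Muscle genes were present in every tumour. Of the 42 members, 35 had at least 10 reads in all 12 tumours, and none was at 0 in all of them. Together the members took 0.0974% to 0.814% of a tumour's reads. Their summed level was 2620, 1648, 8411, 2233, 3378 and 6015 CPM in WT tumours 1 to 6, and 1648, 2626, 2090, 965, 1022 and 2752 CPM in dKO tumours 1 to 6. WT tumour 3 (male, batch 2) was highest, 8.71-fold above dKO tumour 4 (male, batch 3), and the groups overlapped. The WT tumours alone spanned 5.11-fold and the dKO tumours 2.85-fold. The mean was 4051 ± 2625 CPM in WT and 1851 ± 772 CPM in dKO (SD, n = 6 each), and 3179 ± 1705 CPM in the 5 WT tumours without tumour 3. Taken batch by batch (1, 2, 3), the dKO mean stood at a log2 distance from the WT mean of -0.86, -0.90 and -1.62.

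**Figure D1:**
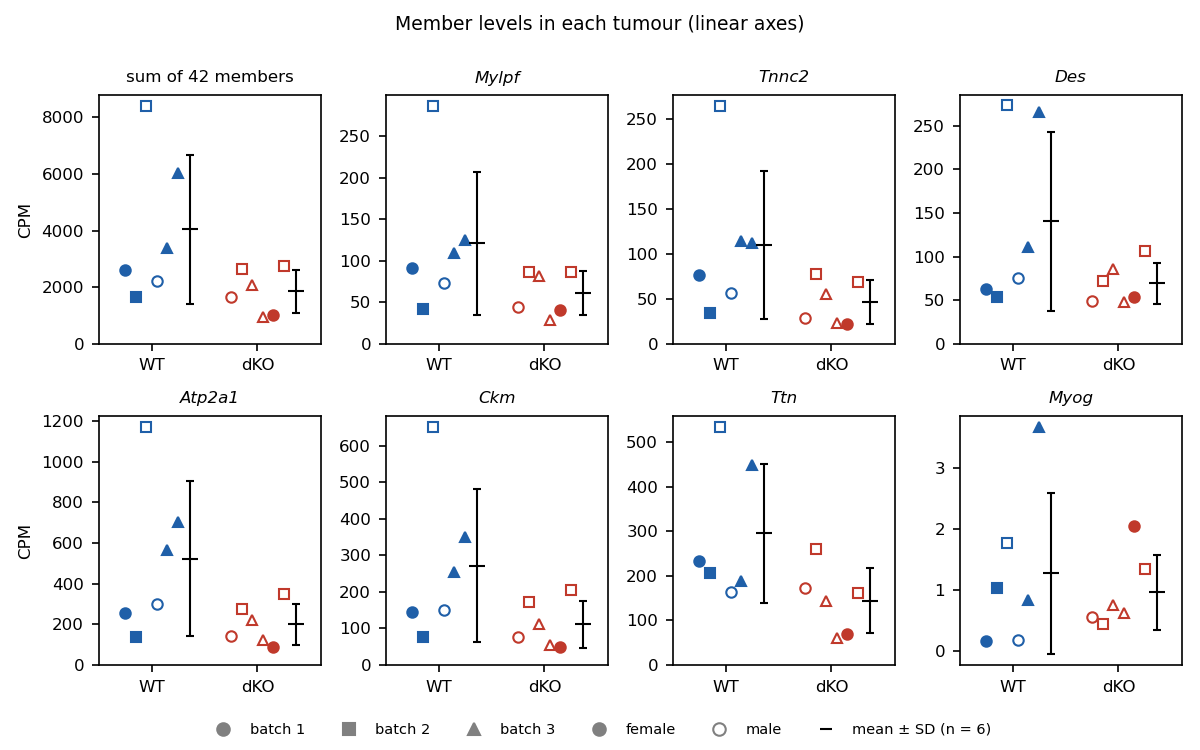
Level in CPM (linear axes) of the sum of the 42 members and of 7 members in each of 6 WT (blue) and 6 dKO (red) melanomas; marker shape gives the batch, filled markers are females, open markers males, and bars give the mean ± SD. WT tumour 3 (open blue square) stands at the top of every panel but Myog, and dKO tumours lie in or below the lower part of the WT range in the other panels.

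After a filter on low counts 39 members could be tested between genotypes, and Myh7, Myl2 and Myl3, all of slow muscle, could not. No member passed the test, an adjusted p under 0.05 with a log2 fold change beyond 0.75 by edgeR's quasi-likelihood test with sex and batch as terms. The lowest adjusted p was 0.355, for Myoz1, and of the 18097 genes tested 0.0276% were called lower and 0.0166% higher. At an unadjusted p under 0.05, 27 members were lower and 0 higher in dKO, where 3.97% of all genes were lower and 3.55% higher. The log2 fold change was below 0 for 37 of the 39, against 46.8% of all genes. Its median over the 39 was -1.20, and over all genes 0.02. No member had groups without overlap, which 0.365% of all genes had in the lower direction and 0.309% in the higher. The 39 members vary together across tumours, as described below, so that their count is not a count of independent observations.

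A second tool, DESeq2, called 9 members lower and 0 higher (0.624% and 0.431% of all genes) at adjusted p of 0.00548 to 0.0399. These were Myoz1, Atp2a1, Cacna1s, Myot, Xirp1, Ckm, Tcap, Tnnc2 and Pvalb. With edgeR and without WT tumour 2 (female, batch 2), 2 members were called, Pvalb (log2 fold change -1.56, adjusted p = 0.0188) and Myoz1 (-1.93, adjusted p = 0.042). Without WT tumour 3, 3 members in place of 27 were lower at an unadjusted p and the median was -0.81.

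**Figure D2:**
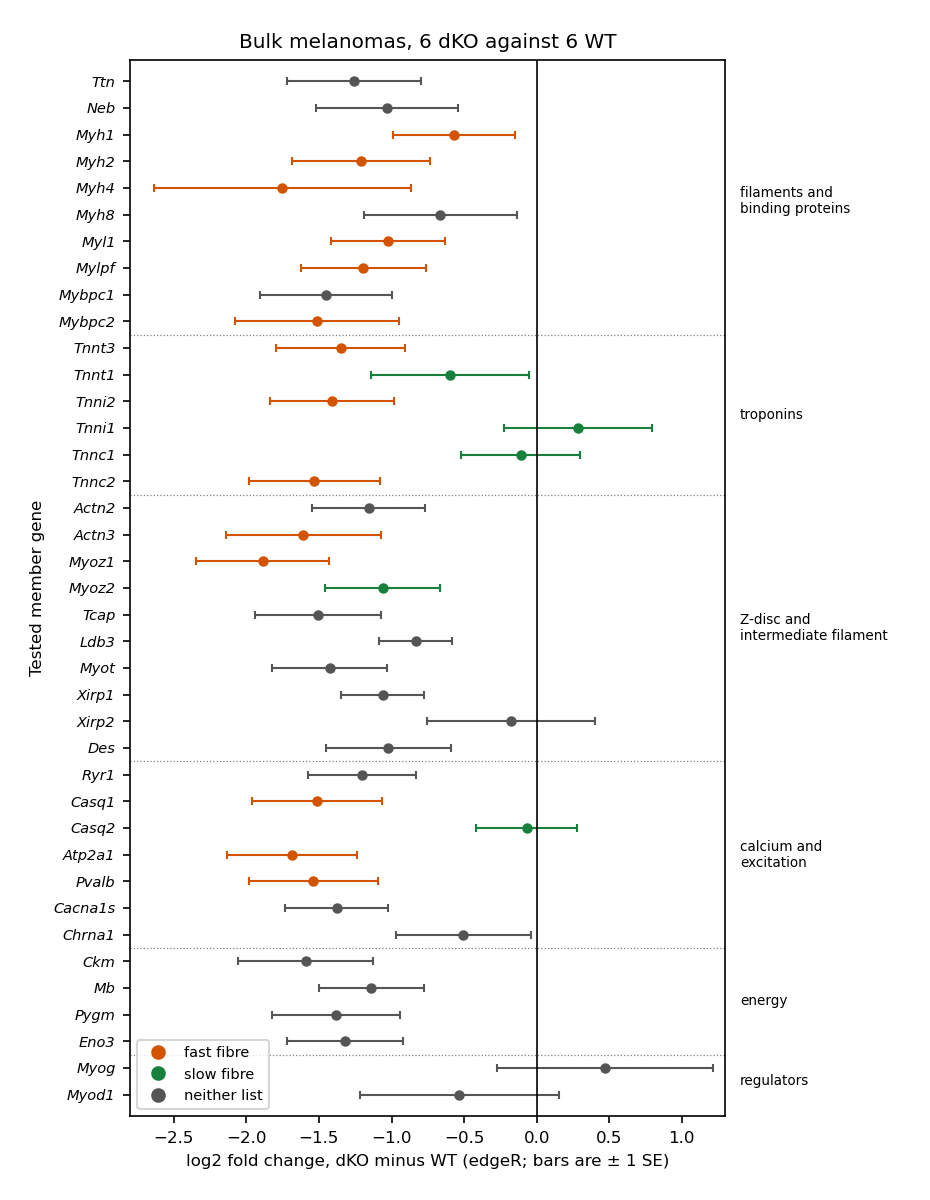
Log2 fold change of the 39 tested members in dKO against WT melanomas, with bars of ± 1 SE from edgeR, ordered by role and coloured by fibre list. Points for 37 members lie below 0, from -1.89 for Myoz1, while Tnni1 and Myog lie above 0 and no member passed the test.

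The tumours that set the range were mostly the same ones from gene to gene. WT tumour 3 was highest for 29 of the 39 tested members and WT tumour 6 (female, batch 3) for 6. The lowest value fell in dKO tumour 5 (female, batch 1) for 13 members and in dKO tumour 4 for 12. All dKO tumours lay below WT tumour 3 for 33 members. Comparing means within a sex, 36 of 39 members were lower in dKO males (n = 5) than in WT males (n = 2), and 35 were lower in the 1 dKO female than in WT females (n = 4). WT tumour 3 was 1 of the 2 WT males. In each of the 3 batches the dKO mean was below the WT mean for the same 31 members. These counts by sex and batch were not made over all genes, so that they have no share to be read against, and the members vary together. No member was called between males and females, where 0.0276% of all genes were called higher in males and 0.00553% lower. The median log2 difference (male minus female) was 0.45, but -0.21 without the genotype term and 0.03 without WT tumour 2. In the main fit 2 members, Ldb3 (0.63 ± 0.28 SE) and Xirp1 (1.16 ± 0.31), were higher in males at an unadjusted p of 0.0469 and 0.00413, where 2.88% of all genes were.

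**Figure D3:**
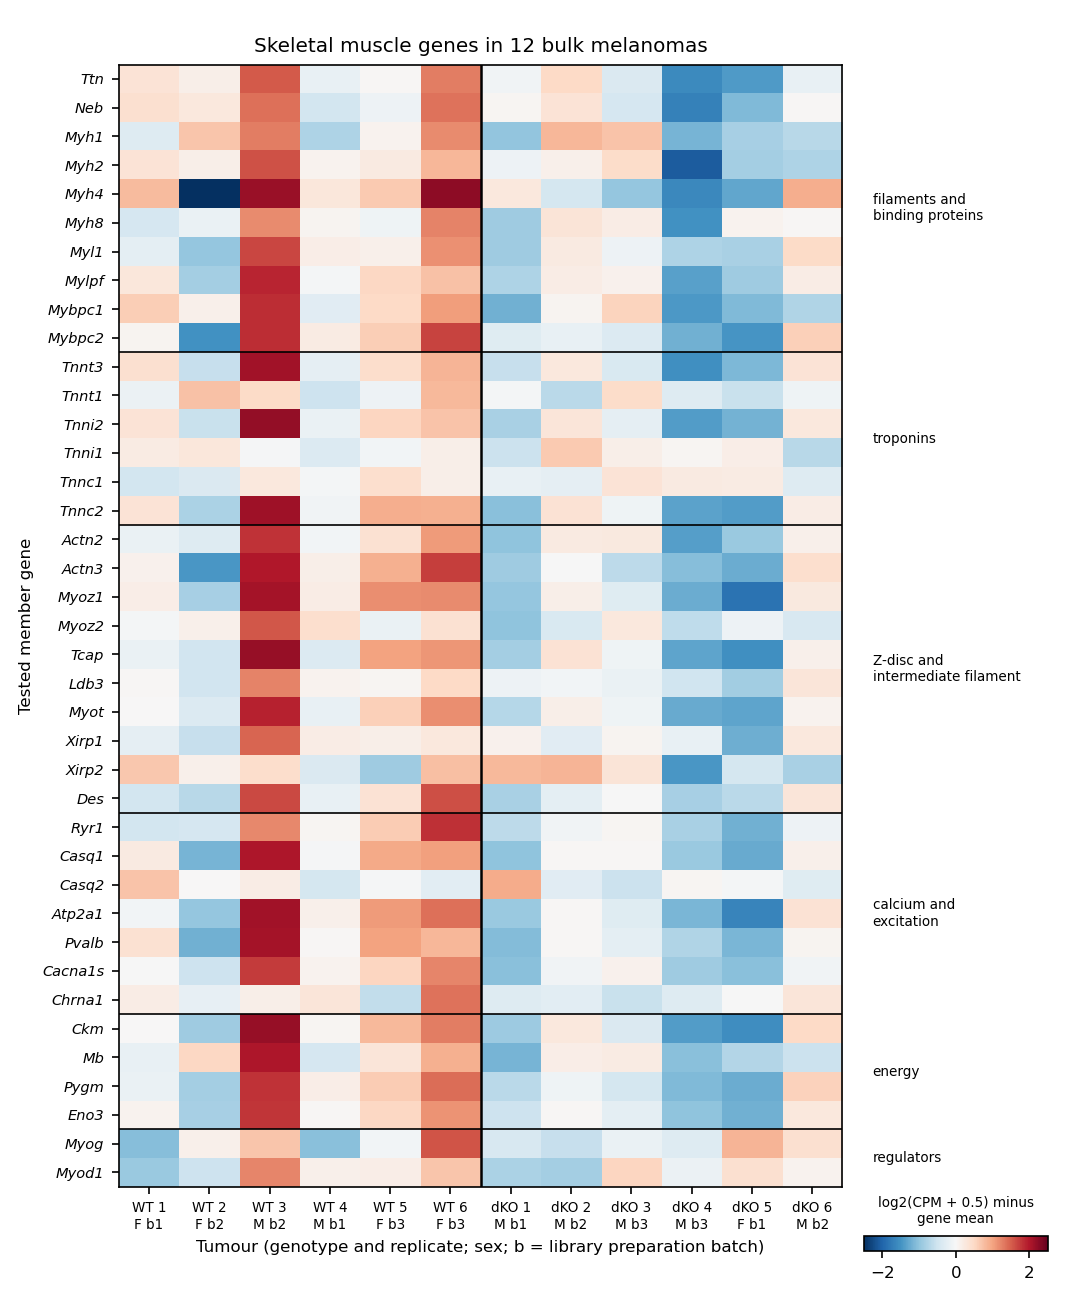
Log2(CPM + 0.5) of the 39 tested members in 12 melanomas, each centred on the mean of its gene (red higher, blue lower), in the order of the labels and by role. WT tumours 3 and 6 are red and dKO tumours 4 and 5 blue over most rows, and Tnni1, Tnnc1, Casq2, Xirp2, Chrna1 and the regulators depart from this.

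Thick filament and light chain genes held the largest counts. Myosin heavy chain 4, the chain of the fastest fibres, ranged from 35.1 CPM over a median of 464 to 1316 CPM in WT and from 91.7 over 174 to 525 CPM in dKO tumours. WT tumour 2 was the lowest of all 12 and WT tumour 6 the highest, so that the WT range enclosed the dKO range (log2 fold change -1.75 ± 0.88 SE, adjusted p = 0.682 by edgeR). Mylpf, the fast regulatory light chain, had 41.7, 100.3 and 286 CPM (lowest, median, highest) in WT and 29.2, 62.7 and 86.7 CPM in dKO tumours (-1.19 ± 0.43, adjusted p = 0.575). The essential light chain Myl1 had 41.98, 91.7 and 264 CPM in WT and 44.1, 61.5 and 114 CPM in dKO (-1.02 ± 0.39, adjusted p = 0.604). WT tumour 3 was the highest for both light chains. WT tumours 2 and 4 fell within the dKO range of Mylpf, while WT tumours 1, 4 and 5 fell within that of Myl1 and WT tumour 2 just below it. The giant spring protein titin, Ttn, which spans from the Z-disc to the middle of the sarcomere, had 163, 220 and 535 CPM in WT and 60.5, 152 and 260 CPM in dKO (-1.26 ± 0.46, adjusted p = 0.575). WT tumours 3 and 6 lay above all dKO tumours and the other 4 WT tumours among the dKO tumours. Of the 10 tested filament genes all had a log2 fold change below 0 and 6 an unadjusted p under 0.05. Myh1 (-0.57 ± 0.42), chain of intermediate fast fibres, and Myh8 (-0.66 ± 0.53), the perinatal chain, were nearest to 0. The filament-binding proteins Mybpc1 and Mybpc2 had -1.45 ± 0.45 and -1.51 ± 0.57. Myh1, Myh2, Myh4 and Myh8 lie side by side on chromosome 11, between 67171027 and 67308634 (GRCm38), and are near-identical in stretches, so that reads shared among them were divided by estimation and their single values are uncertain.

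Troponins carry the calcium signal to the thin filament, with a fast and a slow form of each subunit. Tnnc2 had 34.6, 94.5 and 265 CPM in WT and 22.5, 42.5 and 78.03 CPM in dKO tumours (-1.53 ± 0.45, adjusted p = 0.440 by edgeR and 0.0399 by DESeq2). The fast inhibitory subunit Tnni2 had 48.2, 97.3 and 328 CPM against 26.7, 50.6 and 88.4 CPM (-1.41 ± 0.42), and the fast tropomyosin-binding subunit Tnnt3 84.4, 169 and 542 CPM against 43.7, 91.0 and 162 CPM (-1.35 ± 0.45). In all 3 genes WT tumour 3 exceeded the next WT tumour by more than 2-fold, and WT tumours 2 and 4 fell within the dKO range. The slow subunits were low in every tumour. Tnnt1 had 0.446 to 1.86 CPM in WT and 0.342 to 1.36 CPM in dKO (-0.60 ± 0.54). Tnni1 had 0.401 to 0.883 and 0.200 to 1.29 CPM (0.29 ± 0.51), and Tnnc1 0.211 to 0.810 and 0.287 to 0.754 CPM (-0.11 ± 0.41). The dKO range of Tnni1 enclosed the WT range, and WT tumour 3 was not the highest in Tnni1 or Tnnt1.

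Z-disc genes anchor the thin filaments and link the sarcomeres. Myoz1, which binds calcineurin and alpha-actinin in fast fibres, had 6.36, 20.0 and 51.0 CPM in WT and 2.89, 7.52 and 13.9 CPM in dKO tumours (-1.89 ± 0.46, adjusted p = 0.355 by edgeR and 0.00548 by DESeq2). This was the lowest fold change of the group, and the WT tumours 1, 2 and 4 still fell within the dKO range. Desmin, the intermediate filament around the Z-disc, had 53.2, 93.3 and 273 CPM against 48.6, 63.3 and 106 CPM (-1.02 ± 0.43), with WT tumours 3, 5 and 6 above all dKO tumours. Tcap (-1.51 ± 0.44), which caps titin, Actn3 (-1.61 ± 0.53), the fast alpha-actinin, Myot (-1.43 ± 0.40) and Actn2 (-1.16 ± 0.39) were alike in size. Of the 10 genes, 9 had an unadjusted p under 0.05, and the tenth was Xirp2 (-0.18 ± 0.58), an actin-binding repeat protein that was highest in dKO tumour 2. Xirp1, its relative, had -1.06 ± 0.29 in the fit with sex and -0.51 without. Its means were 11.8 CPM in WT males, 5.57 CPM in WT females, 5.87 CPM in dKO males and 2.21 CPM in the dKO female.

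Calcium handling and excitation genes followed. The pump Atp2a1, which returns calcium to the sarcoplasmic reticulum of fast fibres, had 138, 433 and 1171 CPM in WT and 86.3, 182 and 351 CPM in dKO tumours (-1.68 ± 0.45, adjusted p = 0.391 by edgeR and 0.0162 by DESeq2). WT tumours 3, 5 and 6 lay above all dKO tumours and WT tumours 1, 2 and 4 among them. The calcium buffer Pvalb had 16.4, 59.0 and 163 CPM against 16.9, 27.3 and 40.2 CPM (-1.54 ± 0.44), and its lowest value was in WT tumour 2. The calcium channel of the T-tubule, Cacna1s, had 10.9, 19.9 and 53.7 CPM against 7.33, 11.5 and 16.9 CPM (-1.38 ± 0.35), and the ryanodine receptor Ryr1 38.2, 67.7 and 187 CPM against 22.4, 40.7 and 54.4 CPM (-1.20 ± 0.37). The calcium store protein has a fast and a slow paralogue, whose fold changes were not tested against each other. Casq1, of fast fibres, had 9.94, 35.3 and 94.3 CPM against 9.16, 17.4 and 24.9 CPM (-1.52 ± 0.45), while Casq2, of slow fibres and heart, had 4.19, 5.79 and 9.89 CPM against 3.86, 5.16 and 11.6 CPM (-0.07 ± 0.35). The acetylcholine receptor subunit Chrna1 was between them (-0.51 ± 0.47).

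Energy genes all had an unadjusted p under 0.05. Ckm had 77.1, 202 and 651 CPM in WT and 48.9, 94.5 and 204 CPM in dKO tumours (-1.59 ± 0.47, adjusted p = 0.440 by edgeR and 0.0366 by DESeq2), with WT tumours 1, 2 and 4 within the dKO range. The glycogen phosphorylase Pygm (-1.38 ± 0.44), the muscle enolase Eno3 (-1.32 ± 0.40) and the oxygen store Mb (-1.14 ± 0.36) had like values. The regulators were scarce. Myogenin, which drives the terminal differentiation of myoblasts, had 0.169, 0.939 and 3.66 CPM in WT and 0.448, 0.692 and 2.04 CPM in dKO (0.47 ± 0.75), and MyoD, Myod1, which commits cells to the muscle lineage, had 0.211, 1.01 and 2.69 CPM against 0.250, 0.835 and 1.48 CPM (-0.53 ± 0.68). The highest Myog value was in WT tumour 6 and the next in dKO tumour 5, which was lowest for many structural genes.

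Fast fibre genes far outweighed slow fibre genes. Over all transcripts the 14 fast members had a mean of 3423 TPM of the 4559 TPM of all 42 members in WT tumours and 1634 of 2177 TPM in dKO tumours, and the 8 slow members 17.1 and 14.5 TPM. To keep very short annotated transcripts from setting the length-corrected level, TPM was also summed over protein-coding transcripts of at least 500 bases, a choice made after seeing the data. On that scale the 14 fast members summed to 687 to 4380 TPM in WT and 468 to 1420 TPM in dKO tumours, and the 8 slow members to 7.37 to 15.9 and 6.10 to 10.0 TPM. Fast genes were 98.3% to 99.6% of the sum of both in WT and 98.4% to 99.6% in dKO tumours. With all transcripts the share was 98.2% to 99.7% and 98.4% to 99.5%. The fast gene was above its slow paralogue in 12 of 12 tumours for 7 of the 9 pairs, for Myoz1 over Myoz2 in 11 and for Mybpc2 over Mybpc1 in 10. Median coding TPM over the 12 tumours was 201 for Tnnt3 against 0.701 for Tnnt1, 164 for Tnni2 against 0.773 for Tnni1, and 135 for Tnnc2 against 0.910 for Tnnc1. Myl2 and Myh7 had a median of 0. Among the other pairs the ratio of medians ran from 877.5 for Myl1 over Myl3 down to Casq1 over Casq2 (6.63), Myoz1 over Myoz2 (3.59) and Mybpc2 over Mybpc1 (1.54). Myh7, the slow heavy chain, had at most 0.205 coding TPM in any tumour, and Myl2 and Myl3 at most 1.07 and 0.548.

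**Figure D4:**
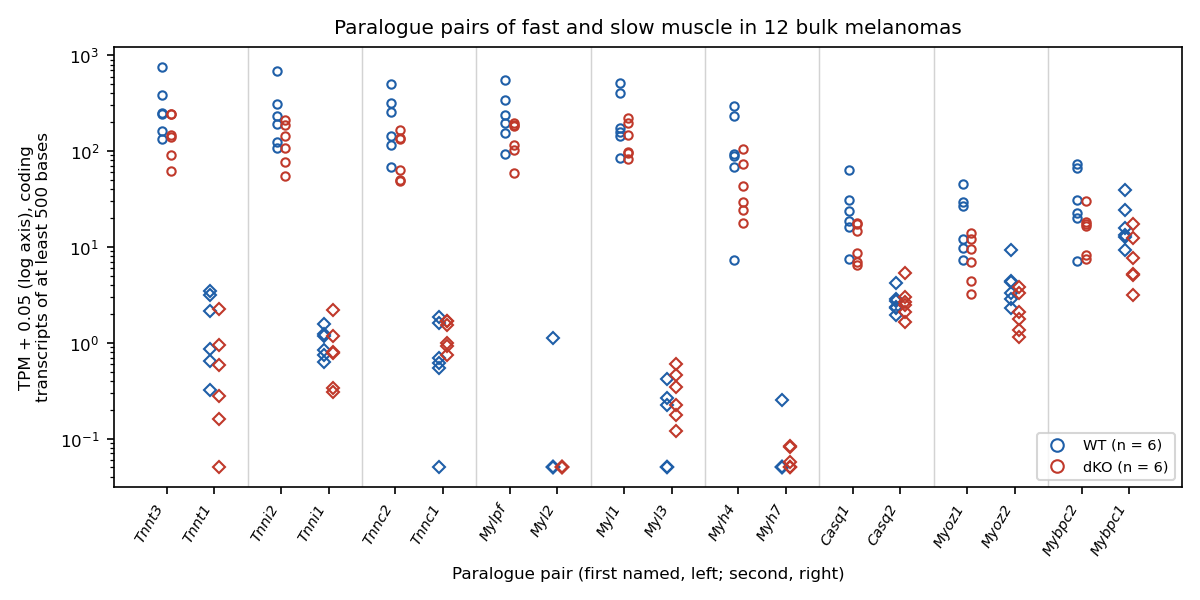
Length-corrected level (TPM + 0.05, log axis, coding transcripts of at least 500 bases) of 9 paralogue pairs in each of 6 WT (blue) and 6 dKO (red) melanomas, the fast gene as circles and its partner as diamonds. Circles stand far above diamonds for the troponins, the light chains and Myh4, and the values meet for Myoz1 with Myoz2 and Mybpc2 with Mybpc1.

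The median log2 fold change of the 14 fast genes was -1.51, with 12 of 14 at an unadjusted p under 0.05. For the 5 of the 8 slow genes that could be tested it was -0.11, with 1 of 5, Myoz2 (-1.06 ± 0.40), at an unadjusted p under 0.05. The difference between the lists was not tested. Slow members were also read in sorted CAFs, where the 8 summed to 3.20 to 5.09 coding TPM in WT libraries, against 7.37 to 15.9 in WT tumours. How much of the slow level in tumours came from cells other than muscle was not tested. The tested slow troponins lay below 2 CPM in every tumour, and Myoz2 and Casq2 between 1.12 and 11.6 CPM. Slow genes were 14.5, 22.2 and 14.6 TPM in WT and 14.4, 14.5 and 14.4 TPM in dKO tumours, as means in batches 1, 2 and 3 over all transcripts.

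Fast myosins did not keep 1 ratio among tumours. Of the TPM of Myh1, Myh2, Myh4, Myh7 and Myh8, Myh4 took 61.0% to 69.1% in 5 WT tumours and 7.73% in WT tumour 2, where Myh1 took 82.0%. In the dKO tumours Myh4 took 25.3% to 76.7% and Myh1 19.6% to 64.4%. WT tumour 2 was also the lowest WT tumour for Mylpf, Mybpc2, Actn3, Casq1 and Pvalb, all fast genes, but its Myh1 level of 347.5 CPM was above that of WT tumours 1, 4 and 5. Its Myh7 count gave 1.01 CPM, where the other 5 WT tumours had 0.

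Transcript estimates show how much of a gene's TPM came from short models. Transcript Mylpf-204, a retained intron of 165 bases, held a median of 65.2% of the Mylpf TPM and 3.00% of its reads, and Tnnc2-202 (296 bases) 68.1% of TPM and 18.8% of reads. For titin, Ttn-201 (81999 bases) held a median of 92.1% of the reads and 63.8% of the TPM. The reads of Tnnt3 were spread over isoforms, with medians of 34.2% on Tnnt3-213, 20.0% on Tnnt3-201 and 17.6% on a further isoform of 1013 bases. Of the nebulin reads 49.6% fell on Neb-201, and the Ldb3 reads fell mainly on Ldb3-205 (58.7%) and the shorter Ldb3-207 (25.5%). Myl1-202 took 65.9% of the Myl1 reads, and its TPM share ranged from 25.1% in dKO tumour 6 to 77.0% in WT tumour 6. With a length offset in the fit the log2 fold change of Ttn was -1.97 in place of -1.26.

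The members rose and fell together over the 12 tumours. The median Pearson correlation of log2 CPM over the 741 pairs of tested members was 0.74, and 0.65 after batch, sex and genotype means were taken out. Of the pairs, 407 were above 0.7 and 53 below 0. These values describe 12 tumours that share libraries and normalization. Against the mean of the other members, 21 of 39 genes had r above 0.9, led by Myot (0.99), Eno3 (0.98), Cacna1s (0.98) and Ckm (0.98). The other end, with r below 0.5, held 7 members, Casq2 (-0.15), Tnni1 (0.02), Tnnc1 (0.20), Myog (0.37), Xirp2 (0.37), Chrna1 (0.46) and Tnnt1 (0.48), which include 4 of the 5 tested slow genes, the acetylcholine receptor subunit and myogenin.

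Among 14520 other genes, the 15 most like the mean member profile were Srl, Fhl1, Hfe2, Pdlim3, Smyd1, Rbm24, Acta1, Fbxo40, Sptb, Nrap, Klhl41, Clcn1, Trim54, Mylk2 and Pfkm, with r of 0.96 to 0.99 over the 12 tumours. Of these, 11 are on the lists of other muscle genes, among them skeletal actin Acta1 (r = 0.98, log2 fold change -1.37 ± 0.45 SE), the sarcoplasmic reticulum protein sarcalumenin, Srl (0.99, -1.08 ± 0.37), and the chloride channel of muscle, Clcn1 (0.97, -1.49 ± 0.40). By edgeR 0 of the 15 passed the test. The unadjusted p was under 0.05 for 15, where 3.97% of all genes were lower at that level. By DESeq2 2 passed, Mylk2 (adjusted p = 0.0299) and Nrap (adjusted p = 0.0449), where 0.624% of all genes were called lower.

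Other muscle genes, listed apart from the members, had like directions. At an unadjusted p under 0.05, 3.97% of all genes were lower and 3.55% higher. Of 34 tested further sarcomere genes 18 were lower at an unadjusted p and 0 higher, with a median log2 fold change of -0.98, among them Nrap (-1.16 ± 0.32, adjusted p = 0.398 by edgeR). Of 16 genes of calcium and excitation 11 were lower (median -1.05), with Kcnj11 (-1.92 ± 0.45), a potassium channel subunit, and Rtn2 (-0.96 ± 0.25). Of 20 metabolic genes 13 were lower (median -1.08), with the cytochrome oxidase subunit Cox8b (-1.71 ± 0.36) and the fatty acid carrier Fabp3 (-1.69 ± 0.39). Genes of the neuromuscular junction (1 of 6 lower, median -0.25, Dok7 -0.69 ± 0.24 and Rapsn -0.54 ± 0.28) and of satellite cells and regeneration (2 of 5 lower, median -0.38, Myf6 -1.48 ± 0.52 and Heyl -0.38 ± 0.16) were nearer to 0. By edgeR 0 genes of these lists passed the test, where 0.0276% of all genes were called lower. DESeq2 called 3, 3 and 6 of the first 3 lists lower, and 0.624% of all genes.

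Markers of the tissues around the muscle were counted at the same unadjusted p, where 3.97% of all genes were lower and 3.55% higher. The log2 fold change was below 0 for 19 of 20 keratinocyte, 14 of 15 adipocyte and 10 of 11 smooth muscle markers, against 46.8% of all genes. It was below 0 for 8 of 10 T cell, 4 of 8 endothelial and 3 of 10 nerve markers. For fibroblast and melanocyte markers it was 1 of 10 each, for macrophage 0 of 10 and for heart 0 of 4. The 20 keratinocyte markers summed to 12240 to 23130 CPM in WT and 5401 to 15800 CPM in dKO tumours (0 of 20 at an unadjusted p, median log2 fold change -0.37, r of the log2 sum to the member profile -0.03). The 15 adipocyte markers summed to 268 to 927 and 198 to 1102 CPM (1 of 15 lower, median -0.49, r = 0.27). Smooth muscle markers summed to 492 to 685 and 490 to 564 CPM (2 of 11 tested lower, median -0.35, r = 0.84). Heart markers (0 of 4, median 0.46), fibroblast (0 of 10, median 0.23), melanocyte (0 of 10, median 0.34), endothelial (0 of 8, median 0.09), nerve (1 of 10 higher, median 0.14), macrophage (2 of 10 higher, median 0.16) and T cell markers (1 of 10 lower, median -0.31) had medians nearer to 0 than the members' -1.20. No marker was at 0 in all tumours on any of these lists. The part of tissue sampling in the muscle gene levels was not tested.

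In sorted and cultured cells the members were 4.66-fold or more below the lowest tumour in summed TPM. The sum was 4559 TPM as the mean of the WT tumours, and 68.4 to 115 TPM in CAFs, 167 to 231 TPM in CD8+ T cells and 42.9 to 77.7 TPM in iDFs. Of the 42 members, 0 were at 0 reads in all 8 CAF libraries, 9 in all 8 CD8+ T cell libraries and 10 in all 8 iDF libraries. Counting members at 3 reads or fewer in all libraries, there were 3, 15 and 27. A count of 0 allows up to 3 reads, or 0.105 to 0.145 CPM in the CAFs, 0.107 to 0.174 CPM in the CD8+ T cells and 0.0956 to 0.129 CPM in the iDFs, which covers counting error only. The heavy chains Myh2 and Myh4 were at 0 in all CD8+ T cell libraries, with myoglobin, Mybpc1, Myoz1, Myot, Xirp2, Myl3 and MyoD. In the iDFs Myh2, Myh8, Myl1, Myoz2, Myot, Xirp1, Pvalb, Ckm, Myog and Myod1 were at 0.

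**Figure D5:**
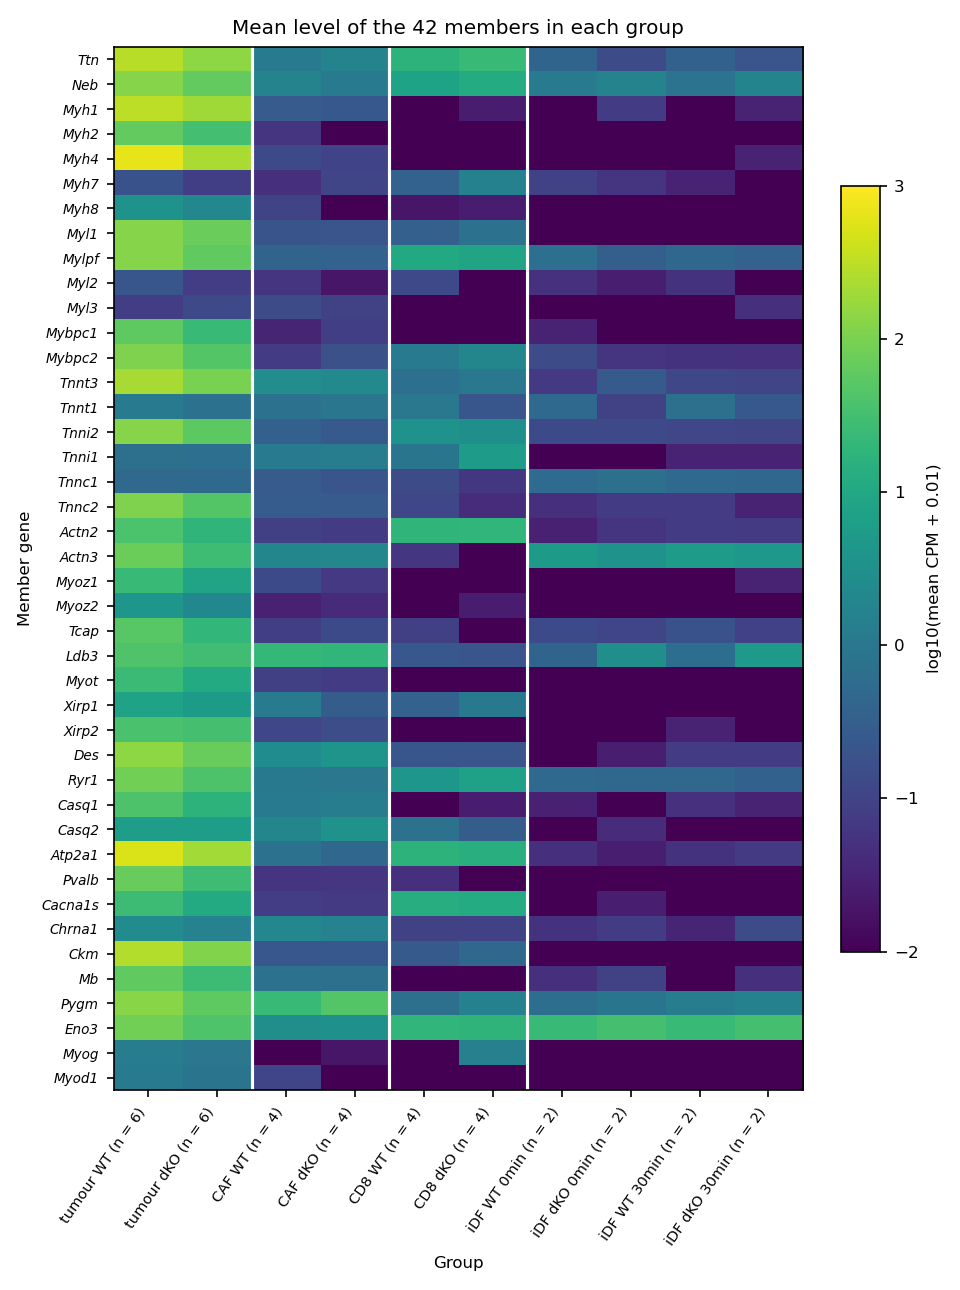
Mean level of each of the 42 members, as log10(mean CPM + 0.01), in 10 groups (n from 2 to 6 libraries). Tumour columns are bright over most rows. In sorted and cultured cells fewer rows stand out, among them Ldb3 and Pygm in CAFs, Ttn, Actn2, Atp2a1, Cacna1s and Eno3 in CD8+ T cells, and Eno3 in iDFs.

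Between WT CAFs (n = 4) and WT tumours (n = 6), 39 members could be tested, but 21 of these passed the low-count filter only through the tumours, where they are high, so that their difference was set by the filter. Of the 18 members that also passed within CAFs, 14 were called lower and 1 higher in CAFs by edgeR, where 26% and 18.7% of the 18039 genes tested were. Tumours and sorted cells were separate experiments, so that cell type and preparation cannot be told apart. Myh4 had 1, 5, 5 and 0 reads in the 4 WT CAF libraries, near the limit of 3, so that no fold is given. Eno3 (-4.38 ± 0.53 SE), Des (-5.26 ± 0.66) and Pygm (-1.94 ± 0.51) were among the members called lower. The member called higher was the slow troponin Tnni1 (1.37 ± 0.29, adjusted p = 0.00186). Over protein-coding transcripts of at least 500 bases its median ran the other way, 0.382 TPM in WT CAFs against 0.9655 TPM in WT tumours. The direction for Tnni1 therefore depends on the transcripts counted. Tnnt1 (-0.10 ± 0.43), Tnnc1 (-0.43 ± 0.47), Chrna1 (0.17 ± 0.46) and Ldb3 (-0.55 ± 0.24, adjusted p = 0.0629) were not called. Tnnt1, Tnnc1, Chrna1 and Tnni1 are among the members with r below 0.5 to the other members in tumours.

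Ldb3, a Z-disc protein with a PDZ domain, had 357 to 663 reads in each CAF library, mainly on the transcript Ldb3-205 (a median of 86.0% of reads). In CAFs the short Ldb3-207, prominent in tumours, held 1.67%. Pygm had 404 to 1418 reads. Between dKO and WT CAFs 0 of 18 tested members were called by edgeR, where 1.45% of 15786 genes were called higher and 4.03% lower. Pygm had 23.4, 19.5, 15.3 and 35.7 CPM in the 4 WT and 38.4, 37.5, 56.0 and 49.6 CPM in the 4 dKO libraries. All 4 dKO libraries were above all 4 WT libraries, as for 7.09% of genes, with 6.86% the other way (0.94 ± 0.24, adjusted p = 0.0511 by edgeR and 0.00174 by DESeq2, which called 2.19% of all genes higher). Without WT CAF sample 4, the highest of its group, the edgeR value was 1.19 (adjusted p = 0.0303). Leaving out any other CAF library gave no member called by edgeR. In whole tumours Pygm had a negative log2 fold change (-1.38 ± 0.44), and the difference between the 2 was not tested. In CAFs Xirp1 (-1.86 ± 0.72) had an unadjusted p of 0.0339 and an adjusted p of 0.154.

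In CD8+ T cells 9 members had at least 10 reads in every library. Among these, Mylpf had 118 to 370, Neb 31.8 to 624.7, Ryr1 26 to 263 and Tnni2 20 to 102 estimated reads per library. Actn2 had 208 to 831, Ttn 178 to 738, Atp2a1 136.6 to 626.2, Eno3 192 to 593 and Cacna1s 52.7 to 446.9 estimated reads per library. For 2 of them the reads fell on transcripts that are not the muscle coding forms. A processed transcript of Actn2 with 501 bases held a median of 74.5% of its reads, against 2.93% in tumours, and a processed transcript of Cacna1s with 1001 bases held 99.9%, against 8.35%. Ttn reads were on Ttn-201 (a median of 99.8%), the long form that also led in tumours, and Atp2a1 reads were mainly on Atp2a1-201 (70.9%). No member of 15 tested was called between dKO and WT CD8+ T cells, where 0.261% of 14944 genes were called higher and 0.234% lower. The slow troponin Tnni1 had 0 to 50 reads in WT and 25 to 234 reads in dKO libraries (2.70 ± 1.28, adjusted p = 0.525). Myog had 106 reads in 1 dKO library and 0 in the other 7.

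In iDFs Eno3 was the most abundant member, with 524 to 1064 reads, and Actn3 had 99 to 146. At 0 min 2 of 10 tested members were called between genotypes by edgeR, 1 higher and 1 lower, where 3.93% of 15047 genes were called higher and 5.11% lower. Ldb3 had 12 and 8 reads in the WT and 112 and 76 reads in the dKO samples (2.98 ± 0.35 SE, adjusted p = 0.000256), and Tnnt1 had 15 and 10 against 3 and 2 (-2.48 ± 0.49, adjusted p = 0.00465). At 30 min 3 were called (3.88% of genes higher, 5.08% lower). Ldb3 had 9 and 20 reads in WT and 125 and 129 in dKO (3.05 ± 0.32, adjusted p = 0.000150), Tnnt1 had 16 and 17 against 5 and 6 (-1.64 ± 0.42, adjusted p = 0.0157), and nebulin had 16 and 21 against 38.3 and 48.1 estimated reads (1.14 ± 0.38, adjusted p = 0.0454). For Ldb3 and Tnnt1 the genotypes did not overlap at either time, which with 2 samples a group held for 34.5% of genes upward and 34.8% downward at 0 min and for 31.6% and 33.6% at 30 min. DESeq2 called Ldb3 at both times (3.4% and 3.33% of genes called higher) and neither of the others. At 30 min 1 member, Ldb3, was still called by edgeR without WT sample 1, without WT sample 2 or without dKO sample 2 of that time. Eno3 passed the p threshold at both times without reaching the fold change asked for (0.43 ± 0.07 and 0.51 ± 0.07, adjusted p = 0.00169 and 0.000700). The counts behind Tnnt1 are small, and with 2 samples per group these tests rest on 4 residual degrees of freedom over all 8 iDF libraries.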

How the data were processed

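RNA-seq was read from 36 deposited libraries. The authors ran Salmon 1.2.1 on a Gencode transcriptome (build GRCm38.p6 per the labels), and the deposited files hold, per transcript, estimated counts and TPM. Deposited lengths and effective lengths of transcripts, in bases, were used for the length offset and the 500-base cut behind coding TPM. Transcripts were assigned to genes by identifier (139791 of 140992 matched), and counts and TPM were summed per gene. The files hold no columns of the authors' own comparisons. No pair of the 36 libraries held identical counts (0 pairs).

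Groups, sex and batch came from the labels. The estimated counts were rounded, filtered by group (minimum count 10, minimum total 15) and tested with edgeR 4.0.16 (TMM factors, robust quasi-likelihood F-test) in R 4.3.3. Sex and library preparation batch were terms in tumours and sex in sorted cells, and the iDFs were fitted as groups of genotype and time. Calls needed a Benjamini-Hochberg adjusted p under 0.05 over all genes tested and an absolute log2 fold change over 0.75. The SE is the absolute log2 fold change divided by the square root of F. DESeq2 1.42.0, other normalizations, other filters and covariates, and leaving out each library were the alternatives. The scripts were tested on simulated counts. Correlations used log2(CPM + 0.5). Counting limits cover counting error only.

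The members, the lists and the tests were chosen with earlier results of these data known. Per-tumour values were given for the member with the highest mean TPM in each role, for the paralogue pairs and for Ttn, Myog and Myod1. In each other list the 2 genes with the smallest p, and as most alike the 15 genes with the highest correlation to the members, were named, apart from an item that is not reported here. Values of further members were chosen after they had been seen. Tumour tests had 7 residual degrees of freedom, sorted cell tests 5, and p-values measure only the spread between these samples.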

Additional observations from a re-analysis of the deposited data

Results flagged for a closer look

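Of 58 groups of tumour values examined for a sample far from its group, 9 held one by Dixon's test. Its chance rate of about 1 of 20 holds only for independent, normally distributed values. The genes here vary together, so that 9 of 58 cannot be read against that rate. WT tumour 3 stood above the other WT tumours for Mylpf (286.0 CPM, others 41.7 to 125), Tnnc2 (265.0 CPM, others 34.6 to 115), Tnnt3 (542.0 CPM, others 84.4 to 228), Tnni2 (328.0 CPM, others 48.2 to 117) and Myoz2 (9.08 CPM, others 2.39 to 3.83). These genes vary together, so that the 5 values are not independent.

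WT tumour 2 had a Myh4 share of the myosin heavy chain members of 7.73% (others 61.0% to 69.1%) and a fast share of fast and slow TPM of 98.2% (others 99.2% to 99.7%). Its Myh7 level was 1.01 CPM, and the other WT tumours were at 0. In dKO tumour 1, Casq2 was at 11.6 CPM (others 3.86 to 6.09).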

How the results depend on the processing

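With DESeq2 the count of members called was 9 in tumours (0 by edgeR), 1 in CAFs (0), 1 in iDFs at 0 min (2) and 1 in iDFs at 30 min (3). With no low-count filter 2 were called in CD8+ T cells (0), Tnni1 and Myog. Leaving out each library gave 0 to 2 members called in tumours and 3 to 28 lower at an unadjusted p. It gave 0 to 1 called in CAFs, 0 in CD8+ T cells, 2 in iDFs at 0 min and 1 to 3 at 30 min. For CAFs against tumours no such range is given, because 21 of the 39 members tested passed the filter only through the tumours. The median log2 fold change in tumours ran from -1.61 without WT tumour 4 to -0.81 without WT tumour 3.

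Of the 39 members tested in tumours, 33 kept their direction under every setting run. For Tnni1 the log2 fold change was -0.032 without the sex term and -0.025 with neither sex nor batch, and ran from -0.17 to 0.51 over the left-out libraries. For Myog it was -0.092 without sex, -0.071 without batch and -0.42 with neither, and ran from -0.47 to 1.496. For Casq2 it was 0.032 without batch and ran from -0.70 to 0.26. For Myod1 it ran from -2.15 to 0.23, for Tnnc1 from -0.89 to 0.37 and for Xirp2 from -0.76 to 0.25. The cause was not tested.

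The same replicate numbers occur in the iDF groups. Deviations of same-numbered iDF samples correlated at 0.0181 to 0.132, so that the numbers were not taken as pairs. With a replicate block 2 members were called at 0 min and 3 at 30 min, as without it. Counts of a few reads limit the slow troponins, Myog and Myod1, and most members in sorted and cultured cells.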
